A study of Mus musculus with 37 samples.

Results

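The 81 genes described here carry the symbols of nuclear-coded subunits of the mitochondrial oxidative phosphorylation system. Their hepatic mRNA levels were followed in mice given HFPO-DA, the ammonium salt of a short-chain perfluoroalkyl ether acid used in fluoropolymer manufacture. The rule that picks them takes symbols alone (Nduf subunit genes of the a, b, c, s and v series, Sdha to Sdhd, the Uqcr genes, the Cox4 to Cox8 genes and the Atp5 genes) among 21450 genes and uses no measured value. By symbol they comprise 36 genes of complex I, 4 of complex II, 8 of complex III, 17 of complex IV and 16 of complex V. Atp5s, counted in complex V by its symbol, is not a subunit of that complex and had too few counts to be tested. Where a gene had more than 1 probe, the probe with the highest total count stood for it.

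The livers came from wild-type adult CD1 mice of a reproduction and developmental toxicity study, given HFPO-DA once daily by oral gavage at 5, 0.5 or 0.1 mg/kg, or deionized water alone as vehicle (0 mg/kg). The males were about 6 weeks old at the first dose and received 84 to 85 doses, 70 days before mating and then through a 14-day mating period. The females were about 11 weeks old at the first dose and received 53 to 65 doses, from 14 days before mating until lactation day 20 or 21. RNA in formalin-fixed, paraffin-embedded sections was counted with the TempO-Seq probe assay, and 37 mice were analysed: in order of rising dose, 5, 5, 5 and 4 males and 5, 5, 4 and 4 females. Sex therefore differed together with age, length of dosing and reproductive state.

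Total counts were 2101495 to 10548222 in males and 7952605 to 13878254 in females, and the lowest total belonged to a male at 5 mg/kg. Ddx3y, a Y-linked gene, had 31 to 623 counts in every male and at most 2 in any female. The sum of 8 hepatocyte markers reached 24692 to 36518 CPM (counts scaled to a common library size) in vehicle males and 16058 to 21038 in males at 5 mg/kg, and 28799 to 39146 against 21217 to 31097 in females. By gene, in the edgeR test described below, Cps1, Pck1, Cyp2e1, Fah and Hpd were lowered in males, and Ttr, Fah and Hpd in females. The other markers were not called, among them Alb (log2 fold change -0.16 in males and -0.25 in females) and Apoa2 (-0.23 and -0.04). The summed 6 markers of striated muscle stayed at or below 31.3 CPM in the vehicle and 5 mg/kg groups. The summed 5 adipocyte markers went from 0 to 0.532 CPM in vehicle males to 3.24 to 6.18 at 5 mg/kg, all of it Cidea, with Ucp1, Adipoq, Plin1 and Cfd at 0 there, and stayed at or below 0.885 CPM in vehicle and high-dose females. In whole-liver sections a change in the share of a cell type and a change in RNA per cell cannot be told apart. The part of the hepatocyte and adipocyte marker differences in the results given here was not tested.

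Oxidative phosphorylation takes place in the inner mitochondrial membrane. Complexes I and II pass electrons from NADH and succinate to coenzyme Q, complex III passes them on to cytochrome c, and complex IV, cytochrome c oxidase, hands them to oxygen, while complex V, ATP synthase, uses the proton gradient so formed to make ATP. In liver this system reoxidizes the NADH and FADH2 released by fatty acid beta-oxidation, the pathway that peroxisome proliferator-activated receptor alpha is best known for inducing. Most subunits are encoded in the nucleus, a small set of core subunits in mitochondrial DNA, and several complex IV subunits exist as alternative isoforms with tissue-restricted use.

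Of the 81 genes, 72 had enough counts to be tested, and 67 of those averaged at least 10 CPM. The other 9 were Atp5s, Cox4i2, Cox6a2, Cox7a1, Cox7b2, Cox8c, Ndufa3, Ndufa4l2 and Sdhb, with 0 to 102 counts summed over all mice. The untested Cox isoforms among them are known as lung (Cox4i2), heart and skeletal muscle (Cox6a2, Cox7a1) and testis (Cox7b2, Cox8c) forms. Sdhb, the iron-sulfur subunit of complex II, had 25 counts in all 37 mice on its only probe, so complex II was represented by 3 genes. The members lay on 19 chromosomes of GRCm38, and no chromosome held more than 7.

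At 5 mg/kg, a minority of the subunit genes were raised in each sex. Calls were made at a false discovery rate (FDR) under 10%, that is a Benjamini-Hochberg adjusted p under 0.10 from edgeR's quasi-likelihood test over all probes. Among males 13 of the 72 tested genes were raised and 0 lowered, a share of 18.1%, where 4.21% of all probes tested were raised and 8.49% lowered. Among females 13 of 72 were raised and 0 lowered, against 2.26% of all probes in each direction, or 4.52% in both together. For the lowered genes, DESeq2 also called 0 in each sex, and 1 male gene (Atp5o) and 0 female genes below 0 had an unadjusted p under 0.05. Since the members are abundant, probes averaging at least 10 CPM give a closer background, and of those 7.33% were raised in males and 5.05% in females. The probes used for the 81 genes, 1 per gene, together took 0.946 to 1.38% of all raw counts in vehicle males and 1.61 to 1.74% in males at 5 mg/kg. In females they took 1.11 to 1.28% against 1.52 to 1.73%. On this raw share the vehicle and high-dose mice did not overlap in either sex, but it also depends on the other RNAs in the library. The mean log2 CPM of the 72 tested genes, relative to each gene's mean over all mice, did overlap in males. It was -0.22 to 0.12 in vehicle males and 0.01 to 0.34 at 5 mg/kg, and -0.25 to -0.11 against 0.18 to 0.47 in females.

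Most changes were under 1 on the log2 scale, and called values above 1 were those of Cox6b2 in both sexes and of Uqcr11, Ndufa2 and Uqcrfs1 in females. The median log2 fold change of the 72 genes was 0.22 in males, where the median over all probes was -0.12, and 0.41 in females, where it was -0.01. Fold changes were above 0 for 55 of 72 genes in males (43.6% of all probes) and for 69 of 72 in females (49.1%). Every mouse at 5 mg/kg lay above every vehicle mouse for 7 genes in males and 21 in females, beside 2.78% and 4.40% of all probes, and the reverse held for 0 of 72 genes in either sex, beside 4.80% of all probes in males and 4.31% in females.

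**Figure D1:**
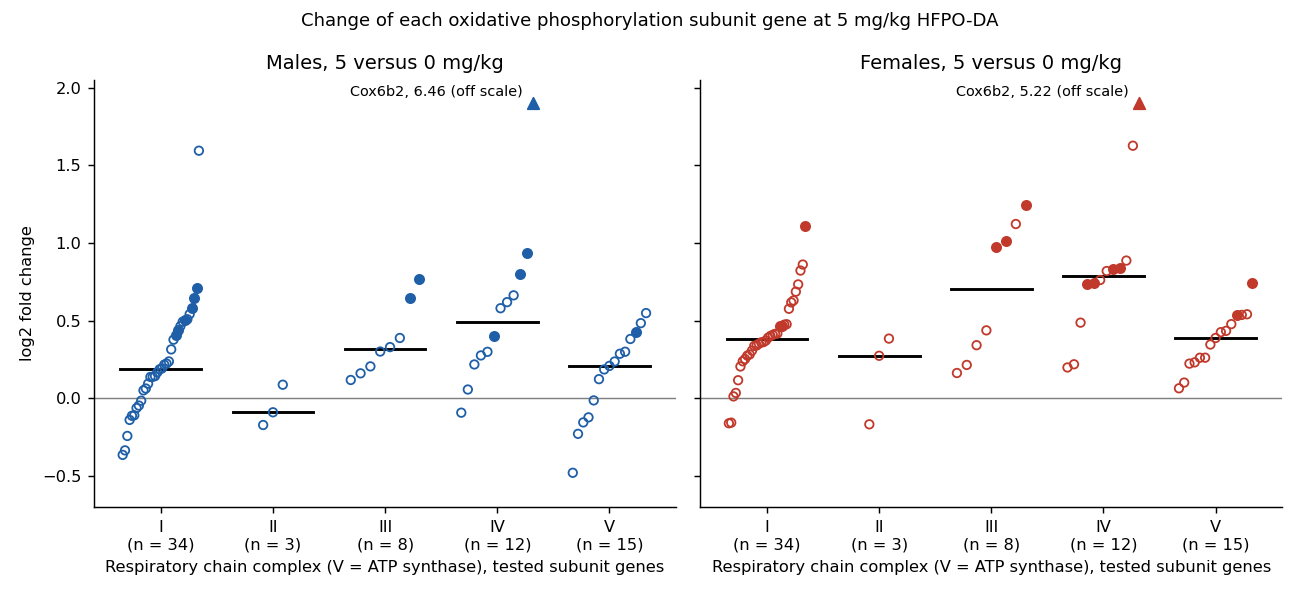
Log2 fold change at 5 versus 0 mg/kg (vertical axis) of each tested subunit gene, by complex (horizontal axis), in males (left, blue) and females (right, red); filled symbols are genes with FDR < 10%, lines are medians, and the triangle is Cox6b2, drawn at the top of the axis with its value of 6.46 in males and 5.22 in females. Genes of complexes III and IV sit highest in both sexes, with medians of 0.32 and 0.49 in males and 0.71 and 0.79 in females, and no gene of complex II is filled.

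Complexes IV and III had the higher medians in both sexes. Complex IV had the highest median log2 fold change, 0.49 in males with 4 of 12 tested genes raised and 0.79 in females with 5 of 12 raised, and complex III followed with 0.32 (2 of 8 raised) and 0.71 (3 of 8 raised). Complex I stood at 0.19 in males (6 of 34 raised) and 0.38 in females (3 of 34 raised). Complex V stood at 0.21 (1 of 15 raised) and 0.39 (2 of 15 raised). Complex II stood at -0.09 and 0.27 with 0 of 3 genes raised in either sex by edgeR, DESeq2 calling 0 in males and 0 in females, and 0 and 1 of the 3 with an unadjusted p under 0.05. In males complex III passed complex IV with DESeq2 (0.42 against 0.39) and without a filter on low counts (0.31 against 0.28), both of which take in sparse isoforms of complex IV. Without Cox6b2 the complex IV median was 0.40 in males and 0.76 in females. Ndufa4, counted in complex I by its symbol, is now regarded as a complex IV subunit, and without it complex I stood at 0.19 and 0.37. The differences between complexes were not tested.

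A total of 7 genes were raised in both sexes, which is 53.8% of the 13 called in males and 53.8% of the 13 called in females. The share of all probes raised in both sexes was not counted, so this overlap has no background beside it. The 7 genes were Cox6b2, Cox6b1, Cox7c and Cox4i1 of complex IV, Uqcr11 and Uqcrfs1 of complex III and Atp5f1 of complex V. On the probes used, no gene of complex I was among them. The 4 with the smallest adjusted p-values in males are shown with the sequence just upstream of their start, from the RefSeq promoter table (GRCm38.p6), leaving out any base that the GENCODE M21 annotation places in an exon. All 4 genes lie on the minus strand, and each line reads 5′ to 3′ along the gene: Cox6b2, chr7:4753095-4753225; Cox7c, chr13:86046905-86047045; Cox6b1, chr7:30626152-30626364; and Uqcr11, chr10:80406831-80407071. Capitals mark a match to the GABP (ETS family) letters CCGGAAG on either strand.
Cox6b2: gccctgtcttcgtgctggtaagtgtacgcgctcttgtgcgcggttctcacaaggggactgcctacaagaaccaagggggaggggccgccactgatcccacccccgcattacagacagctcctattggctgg
Cox7c: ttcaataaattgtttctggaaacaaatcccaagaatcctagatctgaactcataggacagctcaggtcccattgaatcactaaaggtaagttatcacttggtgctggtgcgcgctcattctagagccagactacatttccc
Cox6b1: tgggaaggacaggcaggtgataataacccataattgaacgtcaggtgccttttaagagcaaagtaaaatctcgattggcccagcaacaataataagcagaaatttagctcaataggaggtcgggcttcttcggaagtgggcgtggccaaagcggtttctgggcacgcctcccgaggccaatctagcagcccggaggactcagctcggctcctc
Uqcr11: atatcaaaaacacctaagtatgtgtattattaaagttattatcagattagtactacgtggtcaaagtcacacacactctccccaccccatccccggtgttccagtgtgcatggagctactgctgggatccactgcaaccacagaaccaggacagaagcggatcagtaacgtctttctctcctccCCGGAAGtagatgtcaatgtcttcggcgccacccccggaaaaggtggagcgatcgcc
The only match to any of the motifs searched in these 4 stretches was the GABP match in Uqcr11, 66 to 60 bases before its RefSeq start, and Cox6b1 held a GABP match on the reverse strand 28 to 22 bases before its start, outside the stretch shown.

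Over the whole set, 66 of the 81 genes had a promoter in that table (250 bases before to 50 after the start). Letters of NRF1, GABP and YY1, factors known for controlling respiratory genes, were more frequent in them than in all genes. NRF1 letters (GCGCANGCG) were in 20 of 66, or 30.3%, beside 7.03% of 27025 genes. The CCGGAAG letters of GABP were in 16 of 66, or 24.2%, beside 9.93%, and the YY1 letters AANATGGCG in 9 of 66, or 13.6%, beside 2.76%. ERR letters (TNAAGGTCA) were in 3 of 66, or 4.55%, beside 1.43%, and the PPAR and RXR letters AGGTCANAG in 0 of 66 beside 2.31%. Among the 14 raised genes with a promoter in the table, 2 held NRF1 letters, 2 GABP and 2 YY1 (14.3% each), 1 ERR (7.14%) and 0 PPAR and RXR letters. For NRF1 and GABP these shares were below those of all 66 members. The 27025 genes were not matched to the members in any promoter property. All motifs were searched on both strands, a match is a description of the letters only, and a missing match in this window says nothing about binding of the factor.

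Cox6b2 changed most. It encodes the testis form of the small subunit VIb on the outer face of complex IV, its gene spans chr7:4751792-4753094, and its somatic counterpart is Cox6b1. Cox6b2 CPM was 0, 0.908, 0, 0.664 and 0 in the 5 vehicle males and 23.1, 31.4, 41.6 and 19.8 in the 4 males at 5 mg/kg. In females it was 0.838, 0.205, 0.562, 0.787 and 0.0833 against 16.6, 23.5, 19.1 and 16.1. Every high-dose mouse of either sex thus lay far above every vehicle mouse. The log2 fold change was 6.46 (SE 0.98, adjusted p = 7.78e-06) in males and 5.22 (SE 0.91, adjusted p = 0.000131) in females, from only 12 and 25 counts summed over the vehicle males and females.

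The middle dose gave an intermediate level of Cox6b2 in males. At 0.5 mg/kg the 5 males had 3.22, 3.02, 2.71, 1.85 and 0 CPM, so 4 of 5 lay above every vehicle male and 1 had no count. The log2 fold change of 2.70 (SE 0.89) did not pass edgeR's quasi-likelihood test (adjusted p = 0.235), whereas DESeq2 gave 2.82 with an adjusted p of 0.0733. Females at 0.5 mg/kg had 0.179, 0.801, 1.73 and 0 CPM, overlapping their controls (log2 fold change 0.48, SE 0.87, adjusted p = 1), and at 0.1 mg/kg no mouse of either sex exceeded 0.481 CPM. The sex difference in response, tested as an interaction, did not pass at 5 mg/kg (1.24, SE 1.22, adjusted p = 0.842) or at 0.5 mg/kg (2.22, SE 1.26, adjusted p = 1).

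Both other Cox6b2 probes had fold changes of the same sign. Their log2 fold changes in males were 5.87 (adjusted p = 0.00652) and 7.38 (adjusted p = 0.0210). Females had 4.67 (adjusted p = 0.0419) on the first and 4.04 (adjusted p = 0.321) on the second, which did not pass.

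**Figure D2:**
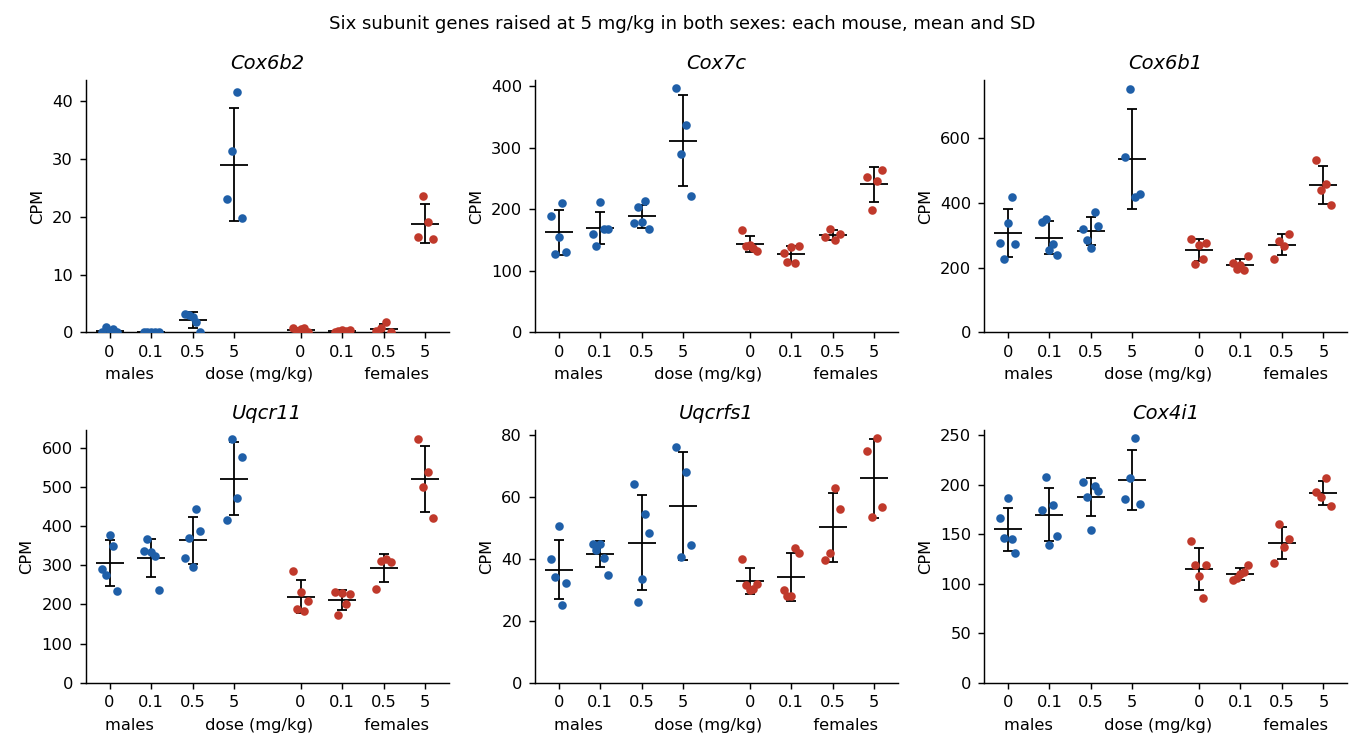
CPM (vertical axes, from 0) of 6 genes raised at 5 mg/kg in both sexes, by dose of HFPO-DA in mg/kg (horizontal axes), in males (blue) and females (red); points are mice, long ticks are means and error bars are SD. Cox6b2 is near 0 at 0 and 0.1 mg/kg, reaches up to 3.22 in males at 0.5 mg/kg and 19.8 to 41.6 at 5 mg/kg, while Uqcr11 of females goes from 183 to 286 at 0 mg/kg to 421 to 623 at 5 mg/kg.

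Among the somatic subunits of complex IV, Cox6b1, the ubiquitous VIb subunit, was at 277, 227, 337, 419 and 273 CPM in vehicle males and 542, 752, 419 and 426 in males at 5 mg/kg, and at 289.9, 211, 269, 225 and 276 against 533, 439, 458 and 393 in females. The groups did not overlap in either sex, although the lowest treated and the highest vehicle male were separated by under 1 CPM. Its log2 fold change was 0.80 (SE 0.17, adjusted p = 0.00139) in males and 0.84 (SE 0.17, adjusted p = 0.00120) in females, and a less abundant probe gave 1.25 and 1.30.

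Cox7c, a small structural subunit of complex IV, was at 188, 127, 154, 211 and 130 CPM in vehicle males and 396, 290.3, 336 and 221 at 5 mg/kg. Females went from 166, 140.4, 143, 137 and 131 to 252, 199, 246 and 264. No high-dose mouse overlapped the vehicle mice of its sex, and the log2 fold changes were 0.94 (SE 0.16, adjusted p = 6.93e-05) and 0.74 (SE 0.16, adjusted p = 0.00259). Cox4i1, the somatic form of the largest nuclear-coded subunit, was raised by 0.40 in males (SE 0.15, adjusted p = 0.0944), where the groups overlapped, and by 0.74 in females (SE 0.15, adjusted p = 0.00133), where 178 to 207 CPM stood above 85.4 to 143. Cox5b, which binds zinc on the matrix side, was raised in females by 0.83 (SE 0.20, adjusted p = 0.00640) and had 0.22 (SE 0.20, adjusted p = 0.573) in males.

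Among the isoform groups of complex IV, those tested were the somatic forms and Cox6b2. Cox6a1 and Cox8a had log2 fold changes of 0.66 and 0.58 in males and 0.82 and 0.89 in females, with adjusted p-values from 0.111 to 0.244. Cox7b had 0.28 and 0.49, Cox7a2l, which helps to assemble supercomplexes, 0.06 and 0.76, and Cox7a2 0.62 and 1.63 from group means of at most 5.49 CPM, all without passing. Cox5a was the lowest of the 12, with -0.09 in males and 0.20 in females.

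In complex III the raised genes were small subunits and the iron-sulfur protein. Uqcr11, the smallest subunit, was at 291, 276, 377, 350.3 and 234 CPM in vehicle males and 416, 622, 473 and 576 at 5 mg/kg, and at 286, 189, 231, 183 and 210.1 against 623, 501, 537 and 421 in females. Neither sex overlapped, and the log2 fold changes were 0.77 (SE 0.17, adjusted p = 0.00167) and 1.24 (SE 0.17, adjusted p = 1.32e-06). The vehicle means were 219.7 CPM in females and 306 in males, whose mice overlapped (adjusted p = 0.144), and the high-dose means were 520.4 and 522.

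Uqcrfs1, the Rieske iron-sulfur subunit that hands electrons toward cytochrome c, was at 40.0, 34.1, 50.6, 25.2 and 32.1 CPM in vehicle males and 75.9, 40.5, 67.9 and 44.4 at 5 mg/kg, which overlapped. Vehicle females had 40.0, 31.4, 29.9, 30.2 and 31.9 and high-dose females 74.8, 53.5, 78.8 and 56.6, with no overlap. The log2 fold changes were 0.65 (SE 0.24, adjusted p = 0.0821) and 1.01 (SE 0.23, adjusted p = 0.00504). Uqcrq, another small subunit, was raised in females by 0.97 (SE 0.25, adjusted p = 0.0130) and had 0.33 (SE 0.25, adjusted p = 0.464) in males. The core proteins Uqcrc1 and Uqcrc2 had 0.12 and 0.16 in males and 0.16 and 0.22 in females, the lowest values of the complex, and did not pass, although a less abundant Uqcrc1 probe was raised in females (0.52, SE 0.17, adjusted p = 0.0760).

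On the probes used, complex I gave 9 genes raised in one sex or the other, and 0 in both. Among the 6 in males were the accessory subunits Ndufb8 (0.65, SE 0.17, adjusted p = 0.00923), Ndufa1 (0.44, SE 0.13, adjusted p = 0.0236), Ndufv3 (0.71, SE 0.21, adjusted p = 0.0257) and Ndufa7 (0.51, SE 0.18, adjusted p = 0.0794), and the core subunit Ndufs7 (0.58, SE 0.20, adjusted p = 0.0635), which lies near the site where coenzyme Q is reduced. In females the genes were the accessory subunits Ndufa2 (1.11, SE 0.26, adjusted p = 0.00697), Ndufb9 (0.46, SE 0.12, adjusted p = 0.0209) and Ndufa10 (0.46, SE 0.14, adjusted p = 0.0621). The 5 genes named for males had 0.31 to 0.48 in females, and the 3 called in females had 0.06 to 0.22 in males. A less abundant probe of Ndufb8 was raised in females too (0.80, SE 0.23, adjusted p = 0.0319), so the split between the sexes depends on the probe. Ndufv1 and Ndufs1, core subunits of the NADH-oxidizing arm, did not pass in either sex (0.38 and -0.11 in males, 0.01 and 0.62 in females). Ndufa5, at 1.59 in males, rested on 0 to 16.9 CPM and did not pass (adjusted p = 0.526).

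Ndufa1, a membrane-arm subunit that is among the most counted members, shows the size of these changes. Vehicle males had 1134, 1018, 1115, 1349 and 872 CPM and males at 5 mg/kg 1450.0, 1526, 1558 and 1434. Vehicle females had 928, 823, 918, 827 and 835 and high-dose females 1152, 1049, 1025 and 1062, a log2 fold change of 0.31 that did not pass (SE 0.13, adjusted p = 0.264). The groups did not overlap in either sex. Ndufa2, an accessory subunit called in females only, had 22.8, 19.3, 15.2, 14.8 and 27.4 CPM in vehicle females and 32.7, 41.6, 52.4 and 45.5 at 5 mg/kg, and its interaction of sex and dose was -1.02 (SE 0.38, adjusted p = 0.329). Males at 5 mg/kg had 41.3, 16.4, 11.6 and 33.1, on both sides of their vehicle range of 20.6 to 27.7.

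Of the ATP synthase genes, Atp5f1, the peripheral stalk b subunit, had 255 CPM on average in vehicle males and 343 at 5 mg/kg (log2 fold change 0.43, SE 0.16, adjusted p = 0.0804), and 244 against 354 in females (0.53, SE 0.16, adjusted p = 0.0422), with overlapping mice in both sexes. Atp5g3, which encodes a copy of the proton-carrying c subunit, was raised in females by 0.75 (SE 0.15, adjusted p = 0.00105), from 181 to 223 CPM to 297 to 378. Its log2 fold change in males was 0.38 (SE 0.15, adjusted p = 0.112). The sister genes Atp5g1 and Atp5g2, which encode the same mature protein, had -0.15 and 0.12 in males and 0.39 and 0.54 in females and did not pass. The core subunits Atp5a1 and Atp5b had 0.48 and 0.29 in males and 0.22 and 0.26 in females, also without passing.

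Complex II, which is both a respiratory enzyme and part of the citric acid cycle, had 0 of 3 genes called on the probes used. Sdha, the flavoprotein that oxidizes succinate, was at 296, 257, 239.7, 249.98 and 260.5 CPM in vehicle males and 241, 251, 185 and 248 at 5 mg/kg. Females had 290.2, 285, 347, 371 and 269 against 271, 231, 260.2 and 353. The groups overlapped, and the log2 fold change was -0.17 in both sexes (SE 0.17 each, male adjusted p = 0.622, female adjusted p = 0.928). The membrane anchors Sdhc and Sdhd had -0.09 and 0.09 in males and 0.39 and 0.27 in females, and high-dose females lay above vehicle females for Sdhc (124 to 137 against 94.3 to 111 CPM) without passing (adjusted p = 0.345). A less abundant probe of Sdhc was raised in both sexes, by 0.63 in males (SE 0.21, adjusted p = 0.0557), against the sign of the probe used, and by 0.77 in females (SE 0.21, adjusted p = 0.0238). With the probes of a gene summed, or with each sex fitted apart, 1 complex II gene was called in females and 0 in males.

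At the lower doses no subunit gene passed the test. At 0.5 mg/kg edgeR called 0 of 72 genes in males, with 3 at an unadjusted p under 0.05 and 1 called by DESeq2 (Cox6b2), and 0 of 72 in females, with 6 and 0. Of all probes, males had 0.625% called and females 0.113%, of which 0.00539% were lowered in females, and 10.3% and 4.33% had an unadjusted p under 0.05. The median log2 fold change of the members was 0.10 in males, with 48 of 72 genes above 0 beside 45.0% of all probes, and 0.14 in females, with 53 of 72 above 0 beside 48.2%. At 0.1 mg/kg edgeR and DESeq2 each called 0 of 72 genes in either sex, 1 gene had an unadjusted p under 0.05 in each (7.14% and 2.38% of all probes), 0 of all 18570 probes tested (0.00% in each sex) were called by edgeR, and the medians were 0.06 and -0.02. At that dose 50 of 72 genes were above 0 in males beside 47.1% of all probes, and 33 of 72 in females beside 51.2%. All treated females lay above all vehicle females for 3 genes at 0.1 mg/kg (Ndufa6, Ndufs4 and Uqcrb, beside 0.781% of all probes) and below them for 1 (Ndufa1, beside 0.474%).

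In females some of the genes called at 5 mg/kg had intermediate values at 0.5 mg/kg, and others did not stand apart from the vehicle. Uqcrfs1 had a log2 fold change of 0.62, Ndufa2 0.64, Uqcrq 0.54, Uqcr11 0.42 and Cox4i1 0.30, with unadjusted p-values of 0.0119, 0.0192, 0.0333, 0.0175 and 0.0573. Each had an adjusted p of 1. For Ndufa2 the 4 females at 0.5 mg/kg, at 29.1 to 33.6 CPM, lay above every vehicle female, and such separation was seen for 4 of the 72 genes beside 1.52% of all probes, and the reverse for 0 beside 1.49%. The corresponding values in males at 0.5 mg/kg were 0.32, 0.20, -0.13, 0.25 and 0.28. By contrast, Cox6b1, also called in females at 5 mg/kg, had 228 to 305 CPM in females at 0.5 mg/kg and 211 to 289.9 in vehicle females. The comparisons at 0.5 and 5 mg/kg share their vehicle females. The unadjusted p-values above are therefore not independent of the calls at 5 mg/kg.

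**Figure D3:**
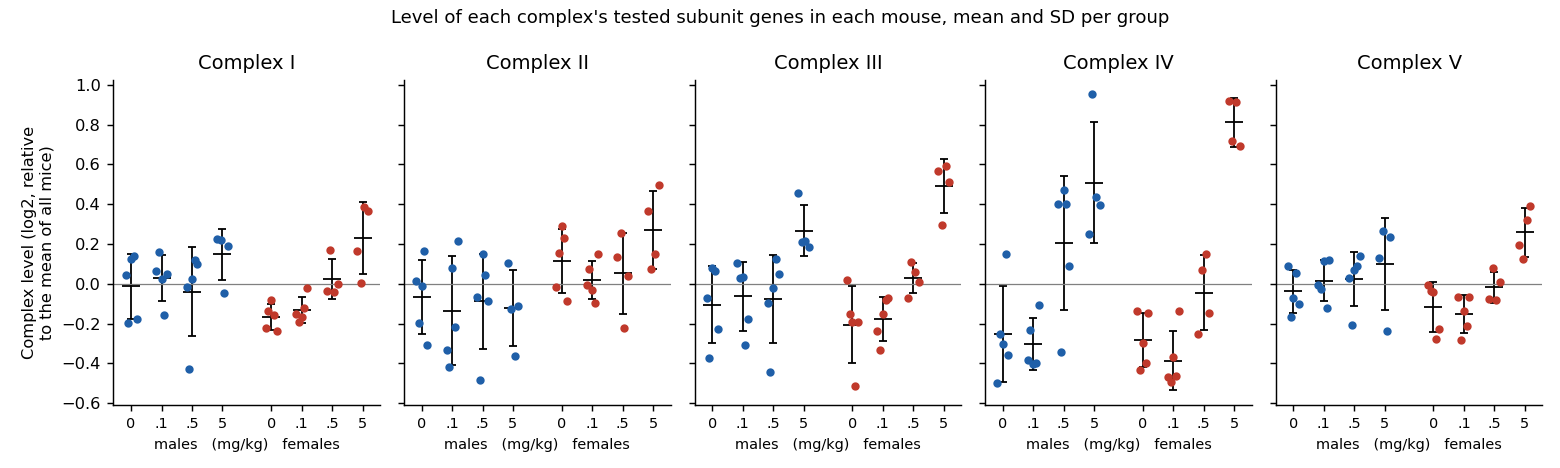
Level of each complex in each mouse (vertical axis, the mean over its tested genes of log2 CPM relative to that gene's mean over all mice), by dose in mg/kg (horizontal axes), in males (blue) and females (red), with group means and SD. Females at 5 mg/kg lie above all vehicle females for complexes I, III, IV and V, and for complex IV at 0.69 to 0.92 against -0.43 to -0.14, whereas complex II overlaps in both sexes.

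When the genes of a complex were averaged in each mouse, complexes IV and III again moved furthest. For complex IV the level was -0.25 ± 0.24 (SD, n = 5) on the log2 scale in vehicle males and 0.51 ± 0.31 (n = 4) at 5 mg/kg, and -0.28 ± 0.14 (n = 5) against 0.81 ± 0.12 (n = 4) in females. Without Cox6b2 it was -0.13 ± 0.21 against 0.15 ± 0.32 in males, where the mice overlapped, and -0.22 ± 0.17 against 0.53 ± 0.14 in females, where they did not. For complex III the levels were -0.11 ± 0.19 and 0.27 ± 0.13 in males and -0.21 ± 0.19 and 0.49 ± 0.14 in females, with no overlap in either sex. Complex I went from -0.01 ± 0.16 to 0.15 ± 0.13 in males and from -0.17 ± 0.06 to 0.23 ± 0.18 in females, and complex V from -0.04 ± 0.11 to 0.10 ± 0.23 and from -0.12 ± 0.13 to 0.26 ± 0.12. These levels carry no test.

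The sexes were compared directly by an interaction term. At 5 mg/kg edgeR and DESeq2 each called 0 of 72 genes (0.63% of all probes called by edgeR), and 6 had an unadjusted p under 0.05 beside 10.7% of all probes. All 6, namely Atp5o, Ndufa2, Ndufs8, Ndufb9, Ndufa4 and Cox5b, had the lower fold change in males. Atp5o, a stalk subunit of ATP synthase, was the most different, with -0.48 (SE 0.22) in males and 0.54 (SE 0.22) in females, neither past the test (adjusted p = 0.184 and 0.239). At 0.5 mg/kg both tools called 0 of 72 (0.0108% of all probes), with 1 gene, again Atp5o, at an unadjusted p under 0.05 beside 5.13% of all probes.

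Across the 72 genes, 58 had the same sign in both sexes at 5 mg/kg, 55 above 0 and 3 below, and 52 had the higher fold change in females. Of all probes, 61.1% had the same sign in both sexes, 27.2% above 0 and 33.9% below, and 56.7% had the higher fold change in females. The median interaction over all probes was -0.12, and -0.04 with DESeq2's size factors. The fold changes of the sexes, which share no mice, correlated at a Pearson r of 0.86 and a Spearman rho of 0.40 over the 72 genes, and at 0.36 and 0.38 over the 71 genes left without Cox6b2. The genes are measured in the same libraries and are not independent replicates.

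**Figure D4:**
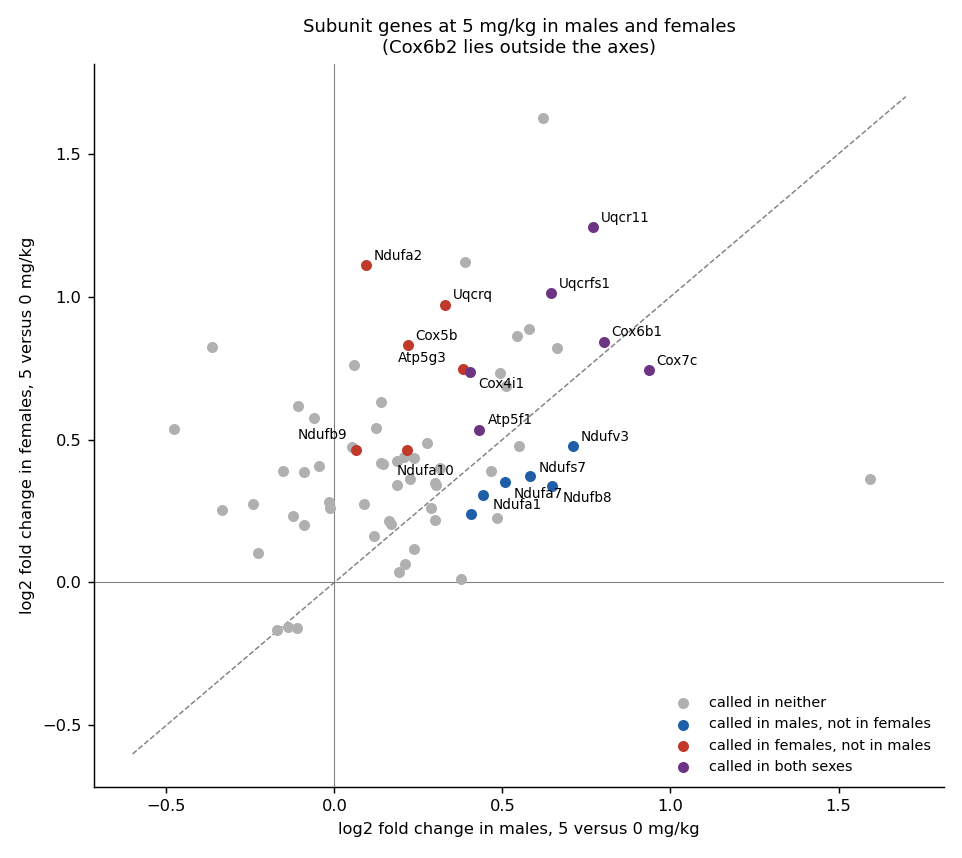
Log2 fold change at 5 versus 0 mg/kg of each tested subunit gene in males (horizontal axis) and females (vertical axis), coloured by the sex in which it was called; the dashed line marks equality, and Cox6b2 (6.46 and 5.22) lies outside the axes. Of the 7 genes called in both sexes, all but Cox6b2 are drawn, in the upper right, and 52 of 72 genes lie above the line.

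Vehicle males and vehicle females were compared in the same model. EdgeR called 0 of 72 between them, where 2.60% of all probes were called, and 11 had an unadjusted p under 0.05 (10.9% of all probes), 8 of them higher in males. DESeq2 called 7, all higher in males, and among them were Ndufb6 (0.42 by edgeR, adjusted p = 0.138), Cox4i1 (0.43, adjusted p = 0.143) and Uqcr11 (0.48, adjusted p = 0.144). The median log2 difference of males from females was 0.10 over the 72 genes.

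Other probes of the same genes were also examined. Of 23 genes with more than 1 tested probe, the 33 probes not used above had the sign of the main probe in 21 cases in males and in 28 cases in females. For genes called in males, 10 of 14 such probes had the same sign and 3 were themselves called. The others included 2 of Ndufs7 (-0.08 and -0.99) and 1 of Atp5f1 (-0.25), none of them called. For genes called in females, 5 of 5 had the same sign and 2 were called. Among genes not called on the probe used, 1 of 19 other probes was raised in males (Sdhc) and 5 of 28 in females, belonging to Ndufb6 (0.63, adjusted p = 0.00970), Sdhc, Ndufb8 (0.80, adjusted p = 0.0319), Atp5d (0.85, adjusted p = 0.0519) and Uqcrc1 (0.52, adjusted p = 0.0760).

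Some subunits and electron carriers fall outside the symbol rule. Of 18 such genes, all tested, 10 were raised in males and 7 in females, with medians of 0.68 and 0.64. Beside these, 4.21% of all probes were raised in males and 2.26% in females, or 7.33% and 5.05% of probes averaging at least 10 CPM. Ndufab1, the acyl carrier subunit of complex I, was raised by 1.38 (SE 0.26, adjusted p = 0.000239) and 1.12 (SE 0.25, adjusted p = 0.00431). Etfdh, which feeds electrons from beta-oxidation to coenzyme Q, was raised by 1.02 (SE 0.27, adjusted p = 0.00947) and 1.31 (SE 0.26, adjusted p = 0.000986), Etfb by 0.68 and 0.52, and cytochrome c (Cycs) by 0.69 and 1.28. Etfa, the partner of Etfb, had -0.12 and 0.49 (adjusted p = 0.837 and 0.358), and Cyc1, the cytochrome c1 of complex III, 0.25 and 0.45 (adjusted p = 0.420 and 0.207), and neither passed in either sex.

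Mitochondrially encoded subunits were part of that list. In males mt-Nd1, mt-Nd2, mt-Nd4, mt-Nd4l, mt-Nd6 and mt-Atp8 were raised, by 0.69 to 1.54, and in females mt-Nd4, mt-Nd4l and mt-Nd6, by 0.65 to 0.91. For mt-Nd4l, a membrane subunit of complex I, vehicle males averaged 503 ± 116 CPM (SD, n = 5) and high-dose males 994 ± 521 (n = 4), with overlap, and females 446 ± 125 (n = 5) against 838 ± 141 (n = 4), without overlap.

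Genes that serve the complexes without being part of them were read against the same background, in males 4.21% of all probes raised and 8.49% lowered. Of 42 tested assembly factors 2 were raised in males, Uqcc3 (0.69, adjusted p = 0.00900) and Uqcc2 (0.80, adjusted p = 0.0598), both of complex III, and 1 lowered, the complex I factor Ndufaf1 (-0.81, adjusted p = 0.0317), while in females edgeR called 0, DESeq2 called 0 and 1 had an unadjusted p under 0.05. Of 12 genes of coenzyme Q synthesis, Coq4, Coq5 and Coq7 were raised in males by 1.36, 0.63 and 0.86 and Pdss2 was lowered (-0.93), and in females edgeR called 0, DESeq2 called 1 and 5 had an unadjusted p under 0.05, 3 above and 2 below 0. Of 17 genes for transcription of respiratory genes and mitochondrial DNA, 0 were raised in either sex by edgeR or by DESeq2, none above 0 had an unadjusted p under 0.05, and 3 were lowered in males. These were Gabpa (-0.60, SE 0.19, adjusted p = 0.0482), a subunit of the factor whose letters appear above, and Mterf1a and Esrra, both too sparse for a fold, with 2 and 0 counts on the probe used in the 4 males at 5 mg/kg and 99 and 30 in the 5 vehicle males. Ppargc1a, the coactivator known for driving mitochondrial biogenesis, had -0.56 in each sex (adjusted p = 0.703 and 0.968), and Tfam and Nrf1 did not pass either.

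**Figure D5:**
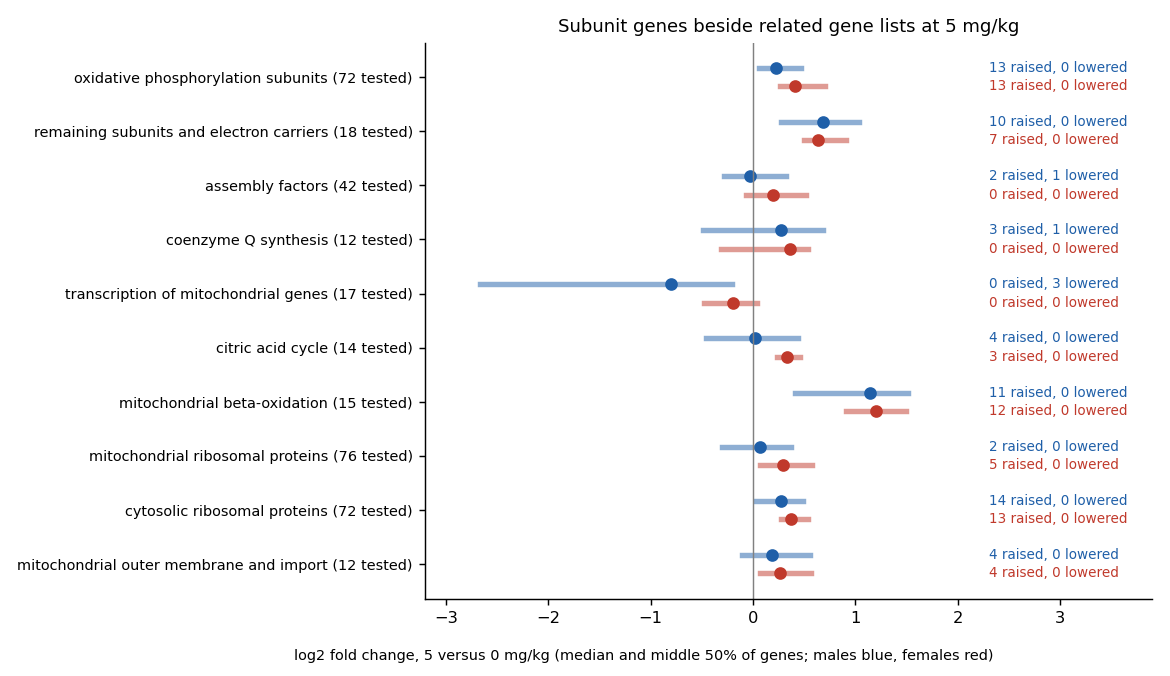
Median (dot) and middle 50% (bar) of log2 fold changes at 5 versus 0 mg/kg (horizontal axis) for the subunit genes and 9 related gene lists (vertical axis), in males (blue) and females (red), with the numbers raised and lowered at FDR < 10%. Of the lists drawn, beta-oxidation genes sit highest at 1.137 and 1.20, and the subunit genes at 0.22 and 0.41 lie beside the cytosolic ribosomal proteins at 0.27 and 0.37. The uncoupling list is not drawn.

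Mitochondrial beta-oxidation genes had the highest medians of the 9 lists plotted, 11 of 15 in males and 12 of 15 in females with medians of 1.137 and 1.20, for example Acadm by 1.46 and 1.32 and Hadhb by 1.84 and 1.67. The citric acid cycle had 4 and 3 of 14 raised (medians 0.02 and 0.33), the outer membrane and import list 4 and 4 of 12 (0.19 and 0.26), including the chaperonins Hspd1 and Hspe1 in both sexes, and mitochondrial ribosomal proteins 2 and 5 of 76 (0.07 and 0.29). Of all probes 4.21% were raised in males and 2.26% in females, and of those averaging at least 10 CPM 7.33% and 5.05%. The mitochondrial ribosomal proteins lay below both shares in males and close to the second in females. Cytosolic ribosomal proteins, which have no part in respiration, had 14 and 13 of 72 raised, 0 lowered by edgeR or DESeq2 with 0 below 0 at an unadjusted p under 0.05, and medians of 0.27 and 0.37, numbers close to those of the subunit genes. No test of the difference between lists was made.

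Of 4 tested carriers of the uncoupling list, 3 were raised in each sex. The medians of this list, which was left out of the plot, were 2.54 in males and 1.41 in females, above those of beta-oxidation. Ucp2, an inner membrane carrier of the uncoupling family, rose by 2.45 (SE 0.26, adjusted p = 3.55e-09) in males and 1.99 (SE 0.25, adjusted p = 4.13e-07) in females. Ucp3 had 0 to 0.649 CPM in vehicle males and 6.37 to 11.5 at 5 mg/kg, and was at 0 counts in all vehicle females against 9 to 66 counts at 5 mg/kg. The ADP/ATP carriers Slc25a4, raised by 2.64 (SE 0.39, adjusted p = 4.03e-06) in males, and Slc25a5, raised by 0.74 (SE 0.19, adjusted p = 0.0183) in females, exchange the product of ATP synthase. Of known PPAR alpha targets, Cyp4a14 was raised by 5.95 and 5.91 and Pdk4 by 5.37 and 5.08.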

How the data were processed

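Per the labels, liver sections fixed in formalin were scraped from slides and run through the TempO-Seq assay, in which paired probes hybridize to the RNA, are ligated, amplified and sequenced. The authors demultiplexed with bcl2fastq 2.17.1.14 and aligned with Bowtie, per the submitters' processing notes, and deposited raw counts of reads for 30146 probes in 37 of 40 mice, 3 having been removed by them for data quality. Probe sequences were not used here, so processed pseudogenes or near-identical copies that share a probe could not be told apart. A probe's efficiency differs from gene to gene, so levels of different genes were not compared.

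The deposited counts were tested with edgeR 4.0.16 (R 4.3.3): TMM scaling, filterByExpr (18570 probes kept), the quasi-likelihood test in a single model of 8 sex-by-dose groups, and Benjamini-Hochberg adjustment over all probes, at a threshold of 0.10. CPM were scaled by TMM, and SE is that of the log2 fold change. Mice are separate animals. No column duplicated another. The values of 1 member gene are not reported here, though it stays in the counts and medians. DESeq2 1.42.0, other scalings, filters, summed probes, thinned counts, each sex alone and leaving out each mouse were alternatives. The code was tested on simulated data for males at 5 versus 0 mg/kg. Of 100 probes changed by 1 on the log2 scale 25 were recovered, and of 100 changed by 2, 46. Those probes were drawn from all but the sparsest, not from the subunit genes. Recovery among the subunit genes, of which 67 of the 72 tested averaged at least 10 CPM, was not simulated. A gene that did not pass may still have changed.

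The symbol rule uses no values, but the gene set and the related lists were proposed with earlier results of these data known. Named genes were those called at 5 mg/kg, the highest and lowest of each complex, core subunits, isoform groups, up to 5 called genes of each related list, and 8 regulators and target genes; other genes named were chosen after their values were seen. Gene locations came from GENCODE M21 (GRCm38) and promoters from RefSeq (GRCm38.p6), both matched by symbol or RefSeq synonym, independent of the authors' alignment.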

Additional observations from a re-analysis of the deposited data

Results flagged for a closer look

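Of 192 groups of values examined for a mouse standing apart from its group, 10 were picked out, where chance alone picks about 1 in 20. At single genes in males, Cox5b was at 25.5 CPM in replicate 4 at 0.1 mg/kg (others 38.8 to 43.5), Cox6b2 at 0.148 in replicate 2 at 0.1 mg/kg (others 0) and Ndufa7 at 33.9 in replicate 2 at 0.5 mg/kg (others 60.3 to 64.0). In females, Uqcr11 was at 239 CPM in replicate 1 at 0.5 mg/kg (others 308 to 315) and Uqcrfs1 at 40.0 in replicate 1 of the vehicle group (others 29.9 to 31.9).

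Among the levels averaged over genes on the log2 scale, male replicate 2 at 0.5 mg/kg had -0.43 for complex I (others -0.02 to 0.12) and -0.37 for all members (others 0.05 to 0.16), with 2608954 counts. Male replicate 4 at 0.1 mg/kg had -0.21 for all members (others -0.04 to 0.02). At 5 mg/kg, male replicate 3, the library with 2101495 counts, had -0.044 for complex I (others 0.19 to 0.22), and male replicate 1 had 0.46 for complex III (others 0.19 to 0.22). The part of depth in these values was not tested.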

How the results depend on the processing

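The count of raised genes at 5 mg/kg depended on the fit more than its direction did. From 13 in males it became 7 without a filter on low counts, 21 with DESeq2, 6 with each sex fitted apart and 7 at an adjusted p under 0.05, and 7 to 13 when 1 mouse was left out. It was 7 without male 5 mg/kg replicate 1 and also without male 0 mg/kg replicate 2, where Atp5o was called lowered (-0.63), and 8 without male 5 mg/kg replicate 2 or male 0 mg/kg replicate 5; Ndufs8 was called lowered (-0.57) without male 5 mg/kg replicate 3. From 13 in females it became 20 with a mean count of at least 10, 29 with DESeq2, 31 with each sex fitted apart and 22 with a gene's probes summed, and 10 to 16 when 1 mouse was left out. In the 8 other fits 0 members were lowered in either sex. Called in all of these fits were 5 of 13 genes in males (Cox6b1, Cox6b2, Cox7c, Ndufb8, Uqcr11) and 10 of 13 in females (all but Atp5f1, Ndufa10 and Ndufb9). At 0.5 mg/kg in males DESeq2 called 1 gene. Between vehicle males and females, 3 genes were called with DESeq2's size factors in edgeR, 4 with upper-quartile factors, 5 with a mean count of at least 10, 7 with DESeq2, 4 with summed probes, 4 with thinned counts, and 0 to 3 with 1 mouse left out. The interaction at 5 mg/kg gave 1 gene, Atp5o (-1.16), in counts thinned to the smallest total. The members' median stayed between 0.20 and 0.32 in males and 0.39 and 0.43 in females over those 8 fits, whereas in males that of complex II ran from -0.14 to 0.11 and that of complex IV from 0.28 to 0.58. The cause of these differences was not tested. The share of all probes called under the other fits was not counted, so these counts of members have no background beside them.

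No paired analysis was possible because the replicate numbers were given in accession order and link no mice. Depth limits the sparse genes, above all Cox6b2 in vehicle mice, and males at 5 mg/kg, where 1 library had 2101495 counts.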

Other observations

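Transcript length varied among the 72 tested genes from 371 to 4715 bases in the longest protein-coding transcript of GENCODE M21, with a median of 870. Shorter transcripts tended to the higher fold change at 5 mg/kg, with a Spearman rho of -0.21 in males and -0.25 in females across the 72 genes, which share the same libraries; this is a description, with no test.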
